A study of Mus musculus with 8 samples.

Results

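The SLC25 genes encode the mitochondrial carriers, transport proteins that mostly sit in the inner mitochondrial membrane. The 40 genes described here are the protein-coding genes of the deposited expression table whose symbol begins with Slc25a and a number, out of 14353 genes in all. GENCODE release M21 annotates 47 such genes, and Slc25a2, Slc25a21, Slc25a31, Slc25a41, Slc25a43, Slc25a48 and Slc25a54 were not analysed here. RNA was taken from the ventral pallidum (VP), a basal forebrain region of the reward circuit, in untreated mice that were homozygous for VGluT2-Cre and heterozygous for the Rpl22 allele. In these mice Cre places an HA tag on a ribosomal protein, so TRAP (translating ribosome affinity purification) collected ribosome-bound mRNA of vGluT2 cells, while INPUT held RNA of all neurons and glia by its label. Each pool of mice (4 pools, numbered VP1.6, VP2.2, VP2.6, VP2.11) gave a TRAP and an INPUT library, and the study compared the fractions to learn which genes glutamatergic VP neurons translate.

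Between 7 and 11 mice went into a pool, 15 males and 23 females over the 38 mice used, aged 9 to 12 weeks in VP1.6 and 10 to 16 weeks in the other pools. All mice carried Cre and the Rpl22 allele, so no library came from mice without the tag. The tag follows every cell that has used the vGluT2 promoter, and a microdissected punch can hold tissue that borders the VP. The methods speak of an unbound fraction where they describe sequencing, whereas the sample labels say Input. Because animals were pooled, each p-value measures the spread between pools and not between mice.

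A mitochondrial carrier binds a small molecule on a single side of the inner membrane and releases it on the other, often in exchange for a second one. The family links cytosol and mitochondria: its members exchange ADP for ATP, import phosphate, move aspartate, glutamate and malate for the shuttle that carries reducing equivalents, and bring in cofactors and iron. In brain the aspartate-glutamate carrier Slc25a12 (aralar) is known as a neuronal protein, Slc25a22 (GC1) and Slc25a18 (GC2) both carry glutamate with a proton, and Slc25a18 is known for its high level in astrocytes.

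The promoters of these 3 genes are printed because all 3 genes carry glutamate and the results turn on them: Slc25a12 and Slc25a18 were called in opposite directions. Each window of 300 bases lies mostly before a transcription start in RefSeq (GRCm38.p6) and runs a little past it, 5′ to 3′ on the strand of the gene. Capitals mark a match to any of the motifs searched. The window of Slc25a12 is chr2:71367706-71368005 (minus strand, 54.3% GC), that of Slc25a22 is chr7:141437825-141438124 (minus strand, 51.7% GC, 1 of 3 listed starts), and that of Slc25a18 is chr6:120773518-120773817 (plus strand, 49.3% GC).
Slc25a12: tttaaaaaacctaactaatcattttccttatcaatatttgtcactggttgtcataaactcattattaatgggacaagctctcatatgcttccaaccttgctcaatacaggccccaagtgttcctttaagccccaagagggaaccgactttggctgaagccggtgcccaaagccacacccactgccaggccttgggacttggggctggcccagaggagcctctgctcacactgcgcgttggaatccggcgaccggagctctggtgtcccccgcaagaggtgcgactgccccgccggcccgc
Slc25a22: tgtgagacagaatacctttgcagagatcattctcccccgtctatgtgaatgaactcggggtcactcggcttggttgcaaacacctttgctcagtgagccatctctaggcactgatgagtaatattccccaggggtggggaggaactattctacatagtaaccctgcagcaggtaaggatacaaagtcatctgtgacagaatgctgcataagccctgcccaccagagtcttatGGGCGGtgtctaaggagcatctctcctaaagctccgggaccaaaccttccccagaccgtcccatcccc
Slc25a18: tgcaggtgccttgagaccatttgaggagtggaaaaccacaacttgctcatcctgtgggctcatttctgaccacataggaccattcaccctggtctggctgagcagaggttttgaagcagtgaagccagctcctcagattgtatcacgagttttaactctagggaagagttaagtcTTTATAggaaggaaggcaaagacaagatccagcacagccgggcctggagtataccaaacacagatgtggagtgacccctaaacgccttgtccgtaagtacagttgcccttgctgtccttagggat

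The Slc25a12 window held none of the motifs, the Slc25a22 window held a GC box, and the Slc25a18 window held TTTATA, which is TATAAA on the other strand. The start used for Slc25a18 lay 190 bases from the start of the gene in GENCODE. RefSeq windows were found for 31 of the 40 genes, and among those without a window were Slc25a26, Slc25a27, Slc25a32, Slc25a35, Slc25a37, Slc25a44, Slc25a46 and Slc25a51. Motifs were searched on both strands. The GC box (GGGCGG), the letters bound by Sp1, was in 27 of the 31 windows (87.1%), against 61.6% of 12990 windows of tested coding genes and 35.66% of all 32851 windows. The CCAAT box (CCAAT) was in 16 (51.6%), against 37.5% and 37.41%. Each member has only the window nearest its GENCODE start, whereas both comparison sets hold every listed start of a gene, so the shares are not strictly alike. The window of Slc25a47, which held a CCAAT box, lay 15083 bases from its GENCODE start. Motifs of factors known for nuclear genes of mitochondrial proteins were rare in all sets. The NRF1 core (GCGCATGC) was in none of the 31 windows and in 4.96% of windows of tested genes, the ETS core (CCGGAAGT) in 1 and 7.51%, the CRE (TGACGTCA) in 1 and 3.02%, and the ERR half-site (AAGGTCA) in 1 and 3.18%. TATAAA was in 1 window, that of Slc25a18, against 7.24%. The median GC content was 60.7% over the family's windows and 52.7% over all windows. No searched motif contains another.

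Levels were log2 CPM values for each gene and library, that is, read counts that the authors scaled to a common library size. Whether they also carry an adjustment by pool was not tested. Values of single libraries are given in the pool order VP1.6, VP2.2, VP2.6, VP2.11 throughout. Effective depths came from whole-read steps in the TRAP minus INPUT differences of low genes, where a shift shared by a pool's libraries cancels. They were about 11.6 M reads for the TRAP libraries of VP2.2 and VP2.6, and 34.9 and 23.0 M for their INPUT libraries. The depth of the other pools is unknown. Single levels were not checked for such steps, so the numbers of reads given below are rough. The tagged cells were checked first. Slc17a6, which encodes vGluT2, rose by 2.55 on the log2 scale in TRAP (limma's adjusted p = 7.3e-06), and Slc32a1, the vesicular GABA transporter, fell by 1.26 (limma's adjusted p = 0.00548). Gad1 and Gad2, which make GABA, did not pass and measured 613 ± 145 and 528 ± 142 CPM in TRAP. By the same test 7 of 10 astrocyte markers, 7 of 8 oligodendrocyte markers and 6 of 8 microglia markers were lower in TRAP. Higher in TRAP were 5 of 6 pan-neuronal markers and 1 of 3 endothelial markers (Flt1). Of all genes tested, 16.8% were called lower and 15.4% higher. Of the microglia markers called lower, Tmem119 had at most 0.4335 CPM in any TRAP library. It reached the test only through its INPUT libraries, where it was high, so its call describes low levels. C1qc and Aif1 were also low, at means of 1.05 and 1.58 CPM in TRAP. No value can be 0 CPM, because the deposited log2 values carry an offset for low counts. In these bulk samples, fewer cells of a type and less RNA per cell cannot be told apart.

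For most SLC25 genes the mean level was lower in TRAP than in INPUT, and 10 of the 40 passed the test in either direction. All 40 passed the filter on low values (over 1 CPM in at least 3 libraries), and the mean log2 difference was below 0 for 31 and above 0 for 9. The median difference of the family was -0.43 (quartiles -0.89 and -0.06), beside -0.05 (quartiles -0.68 and 0.52) over all 14249 genes tested. In the single pools the family's median was -0.39, -0.42, -0.54 and -0.44. Limma with pool as a block called 1 gene higher, Slc25a12, where 15.4% of all genes tested were called higher. It called 9 genes lower, 22.5% of the family, where 16.8% of all genes were, among them Slc25a45, Slc25a18, Slc25a44, Slc25a51, Slc25a23, Slc25a38, Slc25a39 and Slc25a33. Slc25a45, like Slc25a24, Slc25a34 and Slc25a47, passed the filter only through its INPUT libraries, where it was high. Its call is thus a description of low levels and supports nothing about the family. These genes also count among the 31 below 0 and in the median, although the filter favoured that direction. The share of all genes below 0 is not given here, so nothing is read from the 31. With over 4 CPM required in at least 4 libraries Slc25a45 was not tested, 8 members were called lower, and the family's median was -0.42.

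Without the block, limma called 4 genes higher (background 23.2%) and 16 lower (background 24.8%), the 10 genes above among them. In the simulated data described below, with settings unlike this comparison, this fit called 65 unchanged genes, against 1 with the block. Calls made only without the block are therefore weaker and are given as description. The genes added were Slc25a4, Slc25a5 and Slc25a22 as higher, and Slc25a34, Slc25a10, Slc25a16, Slc25a15, Slc25a28, Slc25a14 and Slc25a11 as lower, of which Slc25a34 had no TRAP library over 1 CPM. Every TRAP library lay above every INPUT library for 4 members, Slc25a12, Slc25a22, Slc25a4 and Slc25a5 out of 40, beside 23.3% of all genes tested. Every TRAP library lay below every INPUT library for 14 members out of 40, beside 24.4% of all genes. The direction was mixed over the pools for 22 members.

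**Figure D1:**
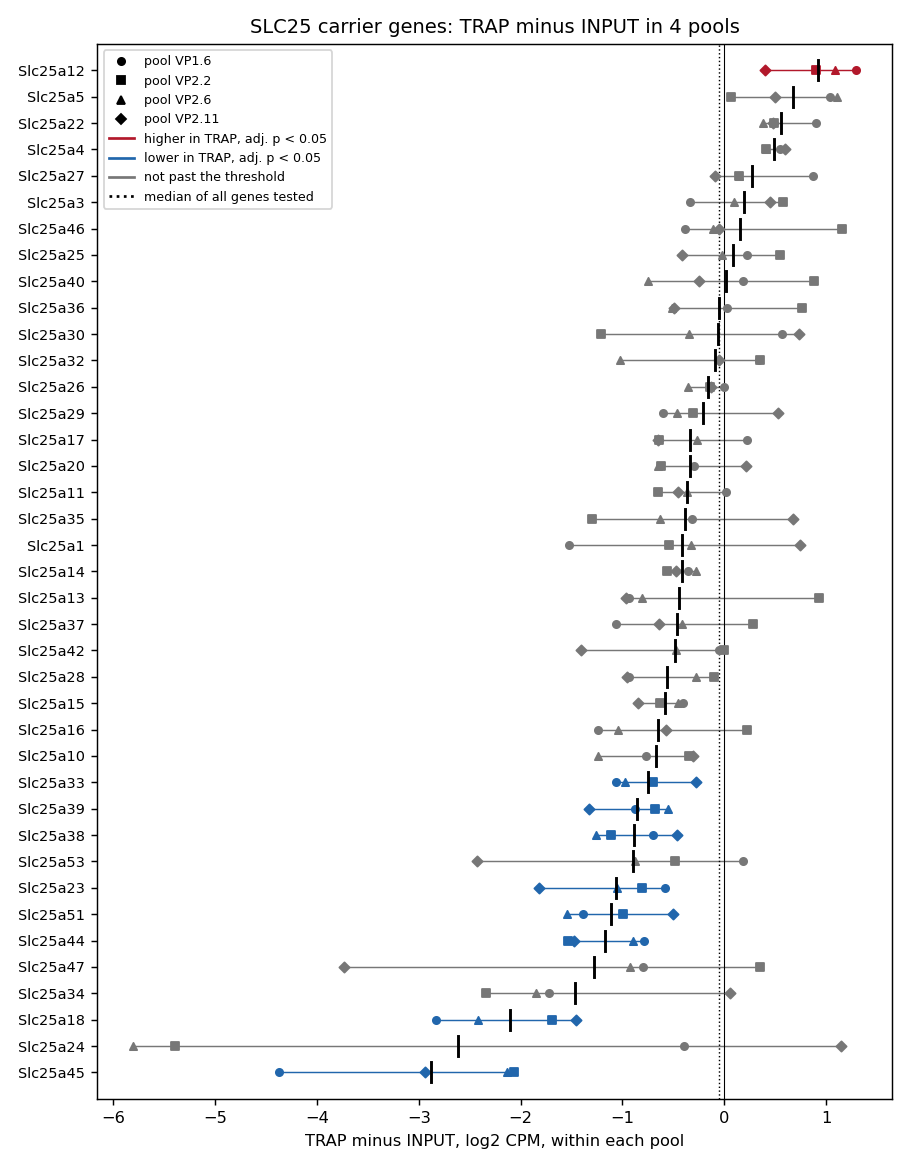
TRAP minus INPUT in log2 CPM (x axis) for the SLC25 genes whose values are reported (y axis, ordered by the mean), with 1 symbol for each of the 4 pools, a black bar for the mean and a dotted line at the median of all genes tested (-0.05). Slc25a12 stands at the top with a mean of 0.92, the genes called lower lie between -0.75 and -2.88, and Slc25a24 has the widest spread between pools.

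Levels between genes were compared as CPM per kb of exon, with the exons of all annotated transcripts of a gene merged. This length can exceed that of the main transcript, so the ranks depend in part on the annotation. The adenine nucleotide translocators, which swap cytosolic ADP for mitochondrial ATP, stood far above the rest. Slc25a5 had 1499 ± 251 CPM per kb in TRAP and 936 ± 158 in INPUT (SD, n = 4), and Slc25a4 had 1154 ± 67.9 and 820 ± 18.9. Together these genes took 71.3% to 76.1% of the family's summed CPM in the TRAP libraries and 63.6% to 66.3% in the INPUT libraries, ranges that did not overlap. Next came Slc25a11, the oxoglutarate-malate carrier, at 75.1 ± 6.65 CPM per kb in TRAP and 96.9 ± 12.4 in INPUT, and Slc25a3, the phosphate carrier, at 54.5 ± 7.03 and 47.7 ± 7.61. Slc25a12 followed Slc25a3 in TRAP at 53.4 ± 8.09 CPM per kb, within the spread of its neighbour, but held rank 8 in INPUT at 28.2 ± 4.32. Slc25a18 held rank 10 in INPUT at 20.1 ± 4.32 CPM per kb and rank 19 in TRAP at 4.75, where its libraries ranged from 3.48 to 6.53. The lowest levels per kb in TRAP were those of Slc25a34 (0.171 ± 0.104) and Slc25a47 (0.193 ± 0.130). The summed CPM of all 40 genes was 6251 to 7427 in TRAP and 5124 to 5653 in INPUT, so the sum, which the translocators dominate, was higher in TRAP although most members were not.

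**Figure D2:**
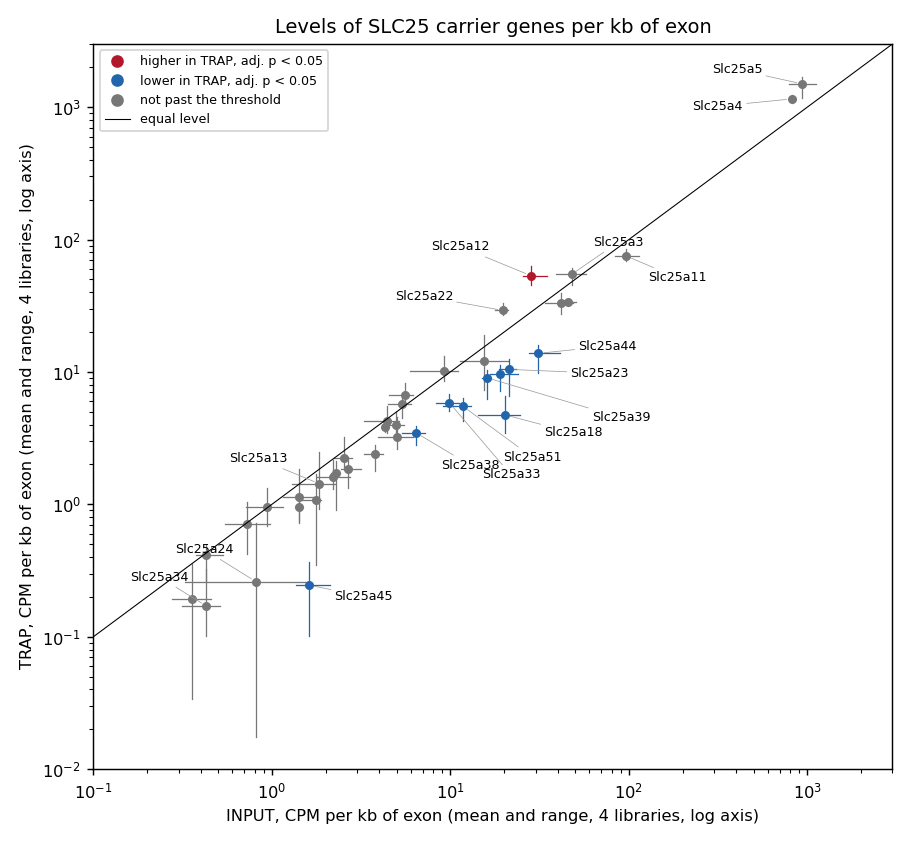
Mean CPM per kb of exon in INPUT (x axis, log scale) and in TRAP (y axis, log scale) for the 40 SLC25 genes, with lines from the lowest to the highest of 4 libraries. Slc25a5 and Slc25a4 have means of at least 820 CPM per kb in both fractions, Slc25a12 and Slc25a22 lie above the line of equal levels, and Slc25a18 and Slc25a45 lie below it.

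Aspartate, glutamate and malate exchange (7 genes measured) held both the only member called higher and a member called lower. Slc25a12 (ENSMUSG00000027010, chr2:71271063-71367749, minus strand) exports aspartate from mitochondria in exchange for glutamate and is a step of the malate-aspartate shuttle. Its level was 464, 352, 418 and 336 CPM in the 4 TRAP libraries, and 189, 189, 196 and 254 CPM in the INPUT libraries. The fractions did not overlap, and INPUT VP2.11 stood above the other INPUT libraries. Slc25a12 rose by 0.92 on the log2 scale (SE 0.23, limma's adjusted p = 0.00651), higher in 4 of 4 pools with differences of 1.30, 0.90, 1.09 and 0.40. Without VP1.6 the difference was 0.80 and limma's adjusted p was 0.0607. Its paralogue Slc25a13 (citrin), which does the same exchange and is known from liver, was far lower. Slc25a13 measured 4.47, 9.38, 4.38 and 3.51 CPM in TRAP and 8.57, 4.92, 7.65 and 6.87 CPM in INPUT. VP2.2 ran against the other 3 pools, and the difference of -0.45 did not pass (limma's adjusted p = 0.403).

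Both glutamate carriers had fractions that did not overlap, in opposite directions. Slc25a22 (ENSMUSG00000019082, chr7:141429744-141437892, minus strand) measured 199, 160, 163 and 176 CPM in TRAP and 107, 114, 125 and 126 CPM in INPUT. Every TRAP library lay above every INPUT library, by 0.90, 0.49, 0.38 and 0.48 on the log2 scale within pools. The mean difference of 0.56 (SE 0.21) did not pass with the block (limma's adjusted p = 0.0533) and passed without it (limma's adjusted p = 0.00425). With the block it also did not pass under quantile scaling or eBayes without a trend (limma's adjusted p = 0.140 and 0.119). Nor did it pass without VP1.6, VP2.6 or VP2.11 (limma's adjusted p = 0.272, 0.133 and 0.106), but it did without VP2.2 (0.0332). Slc25a18 (ENSMUSG00000004902, chr6:120773578-120794336, plus strand) measured 6.64, 12.5, 7.26 and 9.92 CPM in TRAP and 47.2, 40.4, 38.9 and 27.3 CPM in INPUT. The fractions did not overlap, with the lowest INPUT library (VP2.11) still well above the highest TRAP library (VP2.2). Slc25a18 fell by 2.10 on the log2 scale (SE 0.28, limma's adjusted p = 0.000132), a level 4.29 times lower in TRAP, and did so in 4 of 4 pools. Its exons share 32 bases with Atp6v1e1 on the opposite strand, and the sources used here do not state whether reads were counted by strand.

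The other members of this group did not pass. Slc25a11, which trades oxoglutarate for malate and completes the shuttle at the membrane, differed by -0.36 (limma's adjusted p = 0.207), with VP1.6 at 0.02 and the other pools at -0.65, -0.37 and -0.45. Slc25a10, the dicarboxylate carrier, differed by -0.67 (limma's adjusted p = 0.0958), lower in 4 of 4 pools. Slc25a1, the citrate carrier, ranged from -1.52 in VP1.6 to 0.74 in VP2.11, around a mean of -0.41 (limma's adjusted p = 0.326). Over the 7 genes the median difference was -0.41.

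**Figure D3:**
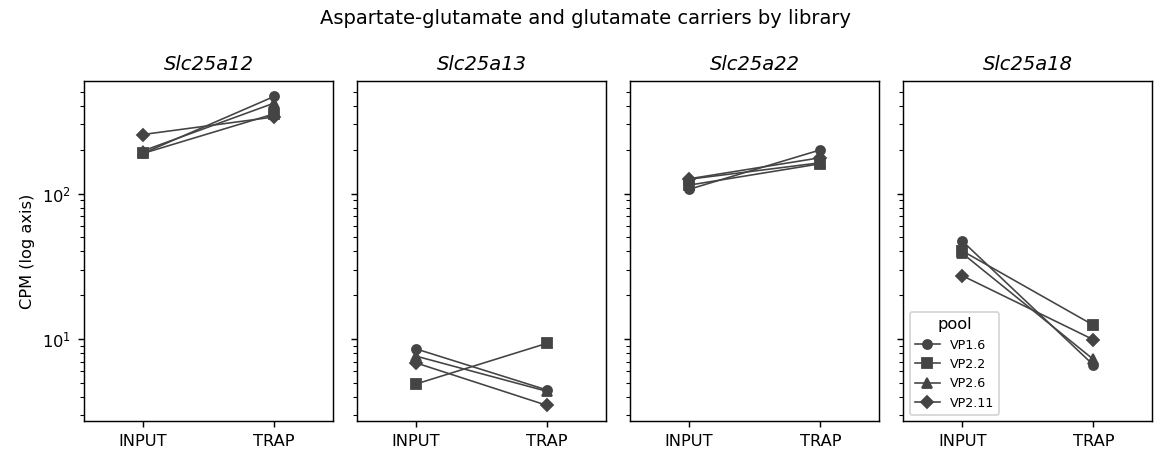
CPM (y axis, log scale) in INPUT and TRAP (x axis) of Slc25a12, Slc25a13, Slc25a22 and Slc25a18, with 1 line per pool. All 4 lines rise for Slc25a12 and Slc25a22, all 4 fall for Slc25a18, and for Slc25a13 the line of VP2.2 runs against the other 3.

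The 4 enzymes of the malate-aspartate shuttle were higher in TRAP, as Slc25a12 was, beside 15.4% of all genes tested. The malate dehydrogenases Mdh1 and Mdh2 rose by 1.23 and 1.20 on the log2 scale, and the aspartate aminotransferases Got1 and Got2 by 1.11 and 0.86 (limma's adjusted p = 0.0108, 0.00374, 0.00631 and 0.0244). Mdh1 and Got1 act in the cytosol, and Mdh2 and Got2 in mitochondria. Glul, glutamine synthetase, which makes glutamine from glutamate in astrocytes, fell by 1.02 (limma's adjusted p = 0.00222). Glud1, glutamate dehydrogenase, differed by 0.54 (limma's adjusted p = 0.134).

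Of 10 astrocyte markers, 7 were lower in TRAP, as Slc25a18 was, and their part in its difference was not tested. The connexins Gja1 and Gjb6 differed by -2.14 and -2.56 on the log2 scale (limma's adjusted p = 2.33e-05 and 4.01e-05). Gfap, Aqp4, Slc1a3 and Sox9 were also called lower, at -1.65, -1.10, -1.12 and -1.95, as was the receptor Fgfr3 (limma's adjusted p = 0.000698). Slc1a2, Aldh1l1 and Aldoc did not pass, with differences of 0.21, -0.27 and -0.09. The summed level of the 10 markers was 1469 to 1890 CPM in TRAP and 1898 to 2229 CPM in INPUT, most of it Aldoc at 1288 ± 190 and 1378 ± 231 CPM. The mean TRAP levels of Gjb6 and Fgfr3 were 4.71 and 4.94 CPM.

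**Figure D4:**
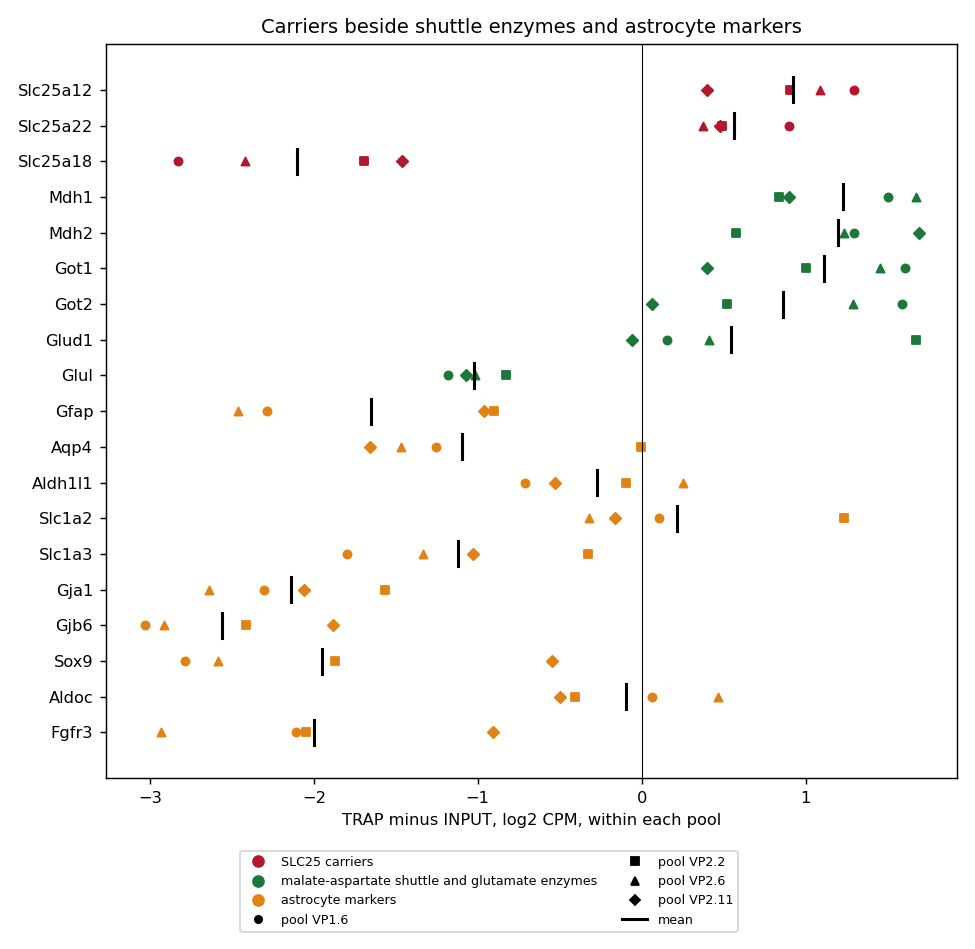
TRAP minus INPUT in log2 CPM (x axis) within each of 4 pools (symbols) for 3 carriers, 6 shuttle and glutamate enzymes and 10 astrocyte markers (y axis), with black bars for the means. Slc25a12 and Slc25a22 lie to the right with Mdh1, Mdh2, Got1 and Got2, and Slc25a18, at a mean of -2.10, lies among the left-hand markers Gja1, Sox9 and Fgfr3.

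Adenine nucleotide, phosphate and ATP-Mg exchange (6 genes) had no gene called higher with the block and 1 called lower. Of all genes tested, 15.4% were called higher and 16.8% lower. Slc25a5 measured 2782, 1931, 2800 and 2353 CPM in TRAP and 1351, 1847, 1299 and 1663 CPM in INPUT. The fractions did not overlap, but in VP2.2 the libraries were close, and the difference was 0.68 (SE 0.28, limma's adjusted p = 0.0772 with the block and 0.0126 without it). The table also lists a processed pseudogene of it, Slc25a5-ps, so reads of near-identical sequence may be split or lost. Slc25a4 measured 2786, 2528, 2653 and 2896 CPM in TRAP and 1911, 1900, 1996 and 1911 CPM in INPUT. Its difference of 0.49 was close to even over the pools, from 0.41 to 0.60 (limma's adjusted p = 0.170 with the block and 0.0147 without it). INPUT VP1.6 and both VP2.11 libraries are rounded to 3 significant digits, coarse at this level, so its spread and SDs are known only roughly. With library weights Slc25a5 and Slc25a22 passed as well, but Slc25a4 did not (limma's adjusted p = 0.00397, 0.0149 and 0.0927). Slc25a3, the phosphate carrier, differed by 0.20 (limma's adjusted p = 0.539).

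The ATP-Mg carriers exchange ATP-Mg for phosphate and set the size of the nucleotide pool inside mitochondria, and calcium regulates them. Slc25a23 (ENSMUSG00000046329, chr17:57043711-57059863, minus strand) measured 66.3, 66.0, 54.3 and 34.8 CPM in TRAP and 99.0, 116, 113 and 123 CPM in INPUT. VP2.11 held both the lowest TRAP and the highest INPUT library, and the fractions did not overlap. Slc25a23 fell by 1.07 on the log2 scale (SE 0.24, limma's adjusted p = 0.00385), lower in 4 of 4 pools. Slc25a25 measured 48.2, 51.3, 44.2 and 35.5 CPM in TRAP and 41.4, 35.2, 44.8 and 47.5 CPM in INPUT, overlapping levels with a difference of 0.08 (limma's adjusted p = 0.818). Slc25a24, named here after its values were seen, measured 0.919, 0.131, 0.0601 and 2.46 CPM in TRAP and 1.21, 5.50, 3.36 and 1.11 CPM in INPUT. Its TRAP values in VP2.2 and VP2.6 were worth roughly 1.5 and 0.7 reads at the depths found, so no fold is given for it. The pools disagreed (limma's adjusted p = 0.0742).

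The uncoupling protein-like carriers (3 genes) gave no call with the block. Slc25a27 (UCP4), a neuronal carrier of this branch, measured 32.4, 25.2, 25.5 and 22.9 CPM in TRAP and 17.8, 22.7, 23.0 and 24.4 CPM in INPUT. The fractions overlapped, and the difference was 0.27 (limma's adjusted p = 0.436). Slc25a14 (UCP5) measured 81.6, 80.9, 84.2 and 75.1 CPM in TRAP and 105, 120, 102 and 104 CPM in INPUT. Its fractions did not overlap, with a difference of -0.42 (SE 0.21, limma's adjusted p = 0.133 with the block and 0.0122 without it). Slc25a30, a carrier known from kidney, differed by -0.06 with pools from -1.21 to 0.73.

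Amino acid, carnitine and glutathione carriers (9 genes) held 4 of the 9 lower calls and no higher call. Of all genes tested, 16.8% were called lower and 15.4% higher. The group's median difference was -0.86. The 4 include Slc25a45, which, like Slc25a47, passed the filter only through INPUT, so neither the count nor the median is read as a result. The member with the lowest TRAP level relative to INPUT was Slc25a45 (ENSMUSG00000024818, chr19:5877808-5885878, plus strand), a carrier whose substrate assignment is less settled. It measured 0.281, 1.02, 0.914 and 0.493 CPM in TRAP and 5.82, 4.27, 4.02 and 3.78 CPM in INPUT. Every TRAP library was below every INPUT library, though its levels were low, worth roughly 11.7 and 10.6 reads in TRAP VP2.2 and VP2.6. The difference of -2.88 on the log2 scale (SE 0.59, limma's adjusted p = 0.0024, with or without the filter) describes a gene with 1 TRAP library over 1 CPM. Slc25a44 (ENSMUSG00000050144, chr3:88410498-88425139, minus strand), known as a carrier of branched-chain amino acids, measured 57.2, 50.8, 54.5 and 35.3 CPM in TRAP and 99.0, 147, 101 and 98.4 CPM in INPUT. INPUT VP2.2 stood above the other INPUT libraries, and the fractions were apart. Slc25a44 fell by 1.18 (SE 0.22, limma's adjusted p = 0.0014), lower in 4 of 4 pools.

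Slc25a38 (ENSMUSG00000032519, chr9:120110374-120124504, plus strand), which brings glycine into mitochondria for heme synthesis, measured 10.7, 9.15, 7.69 and 10.7 CPM in TRAP and 17.4, 19.8, 18.4 and 14.7 CPM in INPUT. It fell by 0.88 on the log2 scale (SE 0.28, limma's adjusted p = 0.0238). Slc25a39 (ENSMUSG00000018677, chr11:102402985-102407946, minus strand), a glutathione importer, measured 25.5, 28.6, 28.1 and 17.3 CPM in TRAP and 46.8, 45.9, 41.3 and 43.4 CPM in INPUT. It fell by 0.86 (SE 0.23, limma's adjusted p = 0.0118), most in VP2.11 at -1.33. Both genes had separate fractions, and both calls were lost when single pools were left out. Slc25a38 no longer passed without VP1.6, VP2.2 or VP2.6 (limma's adjusted p = 0.067, 0.0568 and 0.143), nor did Slc25a39 without VP1.6 or VP2.11 (0.0542 and 0.0576).

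Of the other 5, the ornithine carrier Slc25a15 differed by -0.59 (limma's adjusted p = 0.175) and was lower in every TRAP library than in every INPUT library. Slc25a20, which brings acylcarnitines in for fatty acid oxidation, differed by -0.34 and Slc25a29, a carrier of basic amino acids, by -0.21 (limma's adjusted p = 0.323 and 0.672). Slc25a40, the second glutathione carrier, stood at 0.02 with pools on both sides of 0. Slc25a47, a liver carrier, had no more than 1.05 CPM in any TRAP library and differed by -1.28 (limma's adjusted p = 0.304). The summed level of the 9 genes was 107 to 133 CPM in TRAP and 204 to 266 CPM in INPUT.

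Cofactor and nucleotide carriers (9 genes) held 3 lower calls, where 16.8% of all genes tested were called lower. Slc25a51 (ENSMUSG00000045973, chr4:45395923-45408766, minus strand), which brings NAD+ into mitochondria, measured 27.5, 34.6, 23.6 and 35.3 CPM in TRAP and 72.0, 69.2, 68.8 and 49.9 CPM in INPUT. INPUT VP2.11 stood below the other INPUT libraries but above every TRAP library, and Slc25a51 fell by 1.11 on the log2 scale (SE 0.24, limma's adjusted p = 0.00307).

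Slc25a33 (ENSMUSG00000028982, chr4:149744036-149774277, minus strand), a pyrimidine nucleotide carrier, measured 10.0, 11.7, 9.57 and 12.9 CPM in TRAP and between 15.7 CPM (VP2.11) and 20.97 CPM (VP1.6) in INPUT. The fractions did not overlap, and the gene fell by 0.75 (SE 0.27, limma's adjusted p = 0.0435). Its adjusted p was the highest of the 9 lower calls. It was lost without VP1.6, VP2.2 or VP2.6 (limma's adjusted p = 0.195, 0.0609 and 0.184) and when the trend with exon length was taken out (-0.36, limma's adjusted p = 0.287) or eBayes was run without a trend (limma's adjusted p = 0.0684), and 14.9% of its exon bases overlap the antisense gene Gm13068. Its paralogue Slc25a36 differed by -0.06. The coenzyme A carriers Slc25a42 and Slc25a16 differed by -0.48 and -0.66, and the peroxisomal carrier Slc25a17 by -0.33 (limma's adjusted p = 0.245, 0.0896 and 0.271). Slc25a26, which imports S-adenosylmethionine, and Slc25a32, the folate or FAD carrier, differed by -0.16 and -0.09.

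Neither of the mitoferrins, which bring iron into mitochondria, passed. Slc25a28 differed by -0.57 and Slc25a37 by -0.46 (limma's adjusted p = 0.177 and 0.257). Among the 4 genes of the outer membrane or with no assigned substrate, Slc25a46, which sits in the outer membrane and acts in mitochondrial dynamics, differed by 0.15 (limma's adjusted p = 0.688). Slc25a53 differed by -0.90 (limma's adjusted p = 0.0786), with VP2.11 at -2.43 and VP1.6 at 0.18. Slc25a35 differed by -0.39, and 31.3% of its exon bases overlap Rangrf on the opposite strand. Slc25a34 differed by -1.46 at levels no higher than 1.37 CPM in any library, worth roughly 3.1 and 3.5 reads in TRAP VP2.2 and VP2.6.

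Related carriers were then compared within each library, where the scaling of libraries cancels. For 11 pairs of related genes, the log2 ratio of the pair was taken in each of the 8 libraries, and 3 pairs had ratios that did not overlap between TRAP and INPUT. Single genes did not overlap in 23.3% (above) and 24.4% (below) of all genes tested, so nothing is read from the number of such pairs. The log2 ratio of Slc25a22 to Slc25a18 was 4.91, 3.68, 4.49 and 4.15 in TRAP and 1.18, 1.50, 1.69 and 2.21 in INPUT. It was higher in TRAP by 2.66 (1.94 to 3.73 within pools, 4 of 4 pools). The log2 ratio of Slc25a23 to Slc25a25 was 0.46, 0.36, 0.30 and -0.03 in TRAP and 1.26, 1.72, 1.33 and 1.37 in INPUT, a difference of -1.15 that had the same sign in 4 of 4 pools. The log2 ratio of Slc25a27 to Slc25a14 was -1.33, -1.68, -1.72 and -1.71 in TRAP and -2.56, -2.40, -2.14 and -2.09 in INPUT, a difference of 0.69 (0.38 to 1.23). In each of these pairs the exact two-sided permutation test over libraries gave p = 0.0286, the smallest that 4 against 4 allows. After Benjamini-Hochberg adjustment over the 11 pairs it was 0.105. Ratios that are fully apart always give this p, so the test adds nothing to the separation by which these pairs were named. The exact sign-flip test over 4 pools gave 0.125, the smallest it allows, so this design could not take any pair past 0.05 by pools.

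The ratio of Slc25a12 to Slc25a13 was higher in TRAP by 1.37 on the log2 scale, in 3 of 4 pools, with VP2.2 at -0.03 (exact permutation p = 0.0571, adjusted 0.126). The ratio of Slc25a39 to Slc25a40 was lower by 0.88 on average in 3 of 4 pools (exact permutation p = 0.0571). The ratio of Slc25a36 to Slc25a33 was higher by 0.70 (exact permutation p = 0.0857). The translocators kept a similar balance, with a log2 ratio of Slc25a4 to Slc25a5 of 0.15 ± 0.23 in TRAP and 0.34 ± 0.27 in INPUT (SD, n = 4, exact permutation p = 0.314). Pools ranged from -0.70 to 0.35 for that pair, so a shift of such size within a pool was not resolved. The remaining 4 pairs had exact permutation p-values from 0.371 to 0.629.

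**Figure D5:**
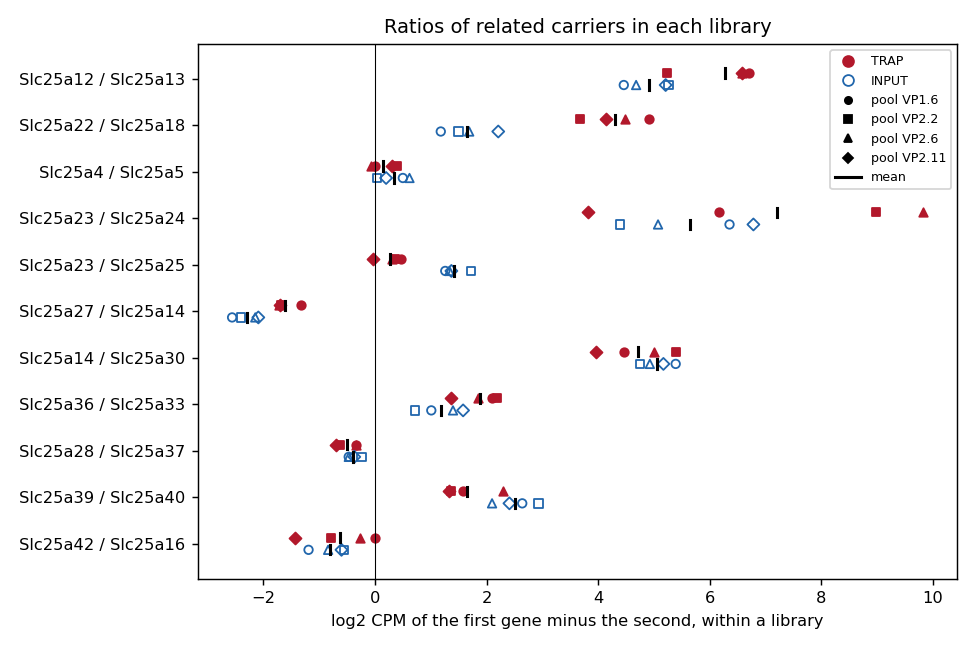
Log2 CPM of the first gene minus that of the second (x axis) for 11 pairs of related carriers (y axis) in 4 TRAP libraries (filled) and 4 INPUT libraries (open), with black bars for the means and symbols for the pools. Filled and open symbols are apart for Slc25a22 with Slc25a18, Slc25a23 with Slc25a25 and Slc25a27 with Slc25a14, and they overlap for the other 8 pairs.

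Other mitochondrial transport genes were read from the same fit. Both subunits of the mitochondrial pyruvate carrier, which is not an SLC25 protein, were lower in TRAP, at -1.07 for Mpc1 and -0.85 for Mpc2 on the log2 scale (limma's adjusted p = 0.00375 and 0.0404). Of 4 carrier-family genes with other symbols, Ucp2 and Mtch1 were lower. Ucp2, the uncoupling protein known from immune cells, stood at -1.92 and Mtch1, a protein of the outer membrane, at -0.74 (limma's adjusted p = 0.000209 and 0.0149). Mtch2 differed by -0.26 (limma's adjusted p = 0.343). Ucp3 passed the filter only through INPUT, at 0.421 ± 0.382 CPM in TRAP and 3.51 ± 0.871 CPM in INPUT, and is given as levels with no call.

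Carriers enter the inner membrane through TOM, the small TIM chaperones and the TIM22 complex. Of 12 genes of this route, 5 were lower in TRAP and none higher, where 16.8% of all genes tested were called lower and 15.4% higher. The list was chosen with earlier results known and got no test. The small TIM genes Timm8a1, Timm8b, Timm10b and Timm13 were called at -1.39, -1.52, -1.29 and -0.85, and Timm22, the pore of the carrier translocase, at -0.72 (limma's adjusted p = 0.00334, 0.000591, 0.00228, 0.0122 and 0.0204). The receptors Tomm20 and Tomm70a did not pass, at -0.08 and -0.29. Of 6 genes of the calcium uniporter, 2 were lower, beside the same 16.8% of all genes tested. They were Mcu at -0.77 and Smdt1 at -1.41 (limma's adjusted p = 0.0206 and 0.000741). The regulators Micu2 and Micu3 did not pass, at 0.50 and -0.00222.

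Among the 40 SLC25 genes the size of the TRAP minus INPUT difference varied with other measured features, given here as descriptions across genes, which are not independent replicates. The difference ran with the mean INPUT level (Spearman's rho 0.39) and with exon length (rho 0.28), and the SD of the difference over pools ran against the mean level (rho -0.63). Across all 14245 genes with a length, the rho of the difference with exon length was 0.41. Slc25a12 has 7342 exon bases and Slc25a18 has 1911. With a length trend taken out of each pool, Slc25a12 stood at 0.66 and Slc25a18 at -1.71, and both still passed (limma's adjusted p = 0.0238 and 0.000296). Slc25a22 then stood at 0.40 and did not pass (limma's adjusted p = 0.123).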

How the data were processed

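RNA of 4 mouse pools was sequenced in 2 fractions, TRAP and INPUT (8 libraries). The authors aligned reads with STAR 2.5.1a to Ensembl release 76 (mouse), counted unique reads per gene with featureCounts 1.4.6-p5, applied TMM size factors and deposited log2 CPM per library for the genes they kept. The strand setting and library kit are not given in the sources used here. The deposited log2 values of 3 libraries (INPUT VP1.6 and both of VP2.11) are rounded to 3 significant digits. The table also holds the authors' own comparison (log2 fold changes with limits, p-values, a linear fold change) and a transcript count, none of which was used.

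The table's 14398 entries include 45 repeats, which were dropped. Positions and exon lengths came from GENCODE M21 (GRCm38), matched by gene identifier for 14349 of 14353 genes. The 14249 genes that exceeded 1 CPM in 3 or more libraries went into limma 3.58.1 in R 4.3.3 (lmFit, eBayes with a trend, fraction plus pool as a block), with Benjamini-Hochberg adjustment over all of them and a threshold of 0.05. Log2 differences are on the deposited log2 CPM scale, to which the authors' offset for low counts applies. The pairing by pool comes from the labels, which give a pool to each library, and from the methods, in which both fractions derive from 1 homogenate. Deviations from the fraction means correlated at -0.668 on average (-0.755 to -0.503) between libraries of a pool and at 0.225 between pools. The second value largely follows from the first, because deviations were taken from means over the same 4 pools. A negative correlation within pools makes paired differences more variable, so in the deposited values the block did not remove a shared pool effect. Whether such an effect had been taken out before deposit was not tested. For Slc25a12 the SE was 0.23 with the block and 0.15 without it. The smaller SE is therefore not read as better precision. In simulated data (14249 genes, 200 changed), 33 changed genes and 1 unchanged gene were called with the block, and 121 and 65 without it. The simulation set the same within-pool correlation of -0.67 for every gene. It also changed a far smaller share of genes than the 15.4% and 16.8% called higher and lower here. Its counts are therefore not error rates of this comparison. The depth estimate was tested on simulated data for VP2.2 and VP2.6 (4000 genes), with a shift shared by both libraries. It returned 8.68 and 19.3 M reads where 9 and 20 M were put in, so it runs slightly low. In VP2.2 and VP2.6, the TRAP minus INPUT differences of 51.9% and 71.8% of low genes lay on whole-read steps.

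The family, its 7 role groups and 11 pairs, and the lists of other genes were chosen with earlier results of these data known. Values for every library are given for Slc25a12, Slc25a18, Slc25a22, the reported members past the threshold and both genes of each pair whose ratios did not overlap, with the paralogues and translocators beside them. Results for some genes are not reported here. Pair ratios were tested by exact permutation. Alternatives were no block, library weights, other filters, log2(CPM + 1), median or quantile scaling, a length trend, eBayes without a trend, a fold threshold and each pool left out. Promoter windows came from RefSeq (GRCm38.p6).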

Additional observations from a re-analysis of the deposited data

Results flagged for a closer look

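In each group of 4 libraries, a library was picked out where its gap to the nearest other library took an unusually large share of the group's range (Dixon's ratio above its critical value for 4 values). Of 80 groups (40 genes in 2 fractions), 4 had such a library, and chance alone gives about 4.0. All 4 were INPUT libraries. Slc25a12 in INPUT VP2.11 stood high at 7.99 log2 CPM, where the other INPUT libraries lay between 7.56 and 7.62. Slc25a4 in INPUT VP2.6 stood high at 10.96 log2 CPM, where the others lay between 10.89 and 10.90. INPUT VP1.6 and VP2.11 are rounded to 3 significant digits, here 10.9, so this gap is too small to tell from rounding. Slc25a44 in INPUT VP2.2 stood high at 7.20 log2 CPM, where the others lay between 6.62 and 6.66. Slc25a51 in INPUT VP2.11 stood low at 5.64 log2 CPM, where the others lay between 6.11 and 6.17. Without VP2.11, Slc25a12 stayed past the threshold at 1.10 on the log2 scale (limma's adjusted p = 0.00921).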

How the results depend on the processing

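The family's median difference stayed between -0.47 and -0.39 under every alternative run, beside -0.43 as reported. Against 1 member higher, the count was 4 with no replicate block, 3 with library weights, 3 with the length trend taken out, 0 with a log2 difference of at least 1 required, and 0 to 3 with a pool left out. Against 9 lower, it was 16 with no replicate block, 5 with that fold required, 12 with library weights (adding Slc25a10, Slc25a16 and Slc25a24), 10 with the length trend or quantile scaling, 8 with the stricter filter, and 7 to 9 with a pool left out. Apart from the fit without the block, shares of all genes under these settings are not given here, so nothing is read from these counts. The genes added as higher were Slc25a5 and Slc25a22 (weights, and without VP2.2) or Slc25a4 and Slc25a5 (length trend). The pairs with separate ratios were 3 or 4 throughout. Of 181 values for 14 genes, 163 kept direction and side of the threshold, 11 lost it, 5 gained it and 2 turned direction. Both were Slc25a25, never past the threshold, at -0.21 with the length trend and from -0.073 (without VP2.2) to 0.25 (without VP2.11) with a pool left out. Slc25a14 passed with quantile scaling (limma's adjusted p = 0.0413). The cause was not tested. Removing the block brought Slc25a4, Slc25a5, Slc25a22, Slc25a34, Slc25a10, Slc25a16, Slc25a15, Slc25a28, Slc25a14 and Slc25a11 past the threshold and changed no other member's call. Depth limits Slc25a24, Slc25a34, Slc25a45 and Slc25a47, which had at most 1 TRAP library over 1 CPM.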
